A study of Homo sapiens with 5 samples.

Results

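The JNK and p38 pathways are mitogen-activated protein kinase cascades that respond to stress. The transcripts of 10 of their kinases were followed in HCT116 cells given the compound LT4. The 10 genes were taken by their symbol from a deposited table of 60623 genes, and their raw counts were compared between LT4 and control libraries. They cover each tier of the cascades. MAP3K5 (ASK1) and MAP3K7 (TAK1) are at the top, MAP2K3 (MKK3), MAP2K4 (MKK4) and MAP2K7 (MKK7) below them, then the JNKs MAPK8 (JNK1) and MAPK9 (JNK2), the p38 kinases MAPK13 (p38δ) and MAPK14 (p38α), and MAPKAPK2 (MK2).

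HCT116 is an established human colorectal carcinoma line. The groups were LT4-treated HCT116 cells (2 libraries, replicates 1 and 3) and control HCT116 cells (3 libraries, replicates 1 to 3), each measured once by RNA-seq of polyadenylated RNA. The labels give no dose, duration or vehicle. The series title names 4-Acetylantrocamol LT3 whereas the sample labels and the design text name LT4, and the compound is called LT4 here as in the labels. In the table's headers the LT4 libraries carry separate group names, while the sample titles number them as replicates of 1 treatment. Separate cultures are not stated, so p-values reflect how far these libraries differed from each other, and that difference may be technical.

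In these cascades a MAP3K phosphorylates a MAP2K, and the MAP2K phosphorylates a MAPK on a threonine and a tyrosine of its activation loop. MAP2K7 is selective for JNK, MAP2K3 for p38, and MAP2K4 acts on both. JNK phosphorylates JUN and related transcription factors, and p38α phosphorylates MAPKAPK2, which in turn phosphorylates the small heat shock protein HSPB1 and the mRNA-binding protein ZFP36. These switches work on proteins, and RNA-seq measures only how much transcript of each kinase is present.

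The sequences that carry the switch are shown for the MAP2Ks and MAPKs, because they separate the JNK from the p38 genes whose transcripts are compared. They are coding sequence of GENCODE 29 transcripts, written 5′ to 3′ on the gene's own strand, with positions in GRCh38. Capitals mark the codons of threonine, a middle residue and tyrosine in the MAPKs.
MAPK8: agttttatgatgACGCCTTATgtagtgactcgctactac
MAPK9: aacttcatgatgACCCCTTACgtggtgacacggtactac
MAPK13: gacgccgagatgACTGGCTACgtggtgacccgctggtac
MAPK14: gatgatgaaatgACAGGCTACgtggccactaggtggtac

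The middle codon reads proline in MAPK8 and MAPK9 and glycine in MAPK13 and MAPK14. The MAPK8 stretch lies at chr10:48420239-48420277 on the + strand in exon 5 of the transcript read, and the MAPK9 stretch at chr5:180249016-180249054 on the - strand in exon 6. The MAPK13 stretch lies at chr6:36136686-36136724 and the MAPK14 stretch at chr6:36075878-36075916, both on the + strand and in exon 7. Over the 39 bases, MAPK8 and MAPK9 were identical at 79.5% and MAPK13 and MAPK14 at 74.4%, while a JNK and a p38 gene were identical at 51.3 to 66.7%.

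In the MAP2Ks the capitals mark the codons from the first phosphorylated serine to the phosphorylated threonine.
MAP2K3: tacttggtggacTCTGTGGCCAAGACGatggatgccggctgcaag
MAP2K4: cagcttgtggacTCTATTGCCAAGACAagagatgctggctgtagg
MAP2K7: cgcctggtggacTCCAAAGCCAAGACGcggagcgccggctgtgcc

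The MAP2K3 stretch lies at chr17:21304497-21304541 in exon 8, the MAP2K4 stretch at chr17:12113304-12113348 in exon 7 and the MAP2K7 stretch at chr19:7911103-7911147 in exon 7, all on the + strand. MAP2K3 and MAP2K4 were identical at 73.3% of these 45 bases, and MAP2K7 at 64.4% with either.

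The LT4 libraries held 9840467 counts in replicate 1 and 2281912 in replicate 3, against 11653484 to 12296916 in the controls. LT4 replicate 3 also stood apart in having 16770 genes with a count, against 19377 in LT4 replicate 1 and 19492 to 20203 in the controls. Mitochondrial genes took 9.92% of its counts, against 5.73% in LT4 replicate 1 and 5.83 to 6.64% in the controls. Of 10 colorectal epithelial markers, 8 reached at least 1 TPM (a level scaled for gene length and library size) in every library, the exceptions being VIL1 and LGALS4. The markers' summed TPM was 8157 to 10200 in LT4 and 9369 to 10430 in control libraries. Of 4 leukocyte markers PTPRC and CD3E were at 0 throughout, and the summed TPM of all 4 was at most 0.264 in LT4 and 0.456 in control libraries. The 5 fibroblast markers summed to 2.53 to 4.29 TPM in LT4 and 4.62 to 5.33 TPM in control libraries, mostly COL1A1, and the 2 endothelial markers to at most 0.131 and 0.116 TPM in the same order.

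All 10 kinase genes had counts in every library, and both MAP3K genes were among the 3 lowest per length in the controls. For 91.1% of genes the length behind the deposited TPM was within 10% of all annotated exons of the gene merged. That length can exceed the length of the transcripts present, which was not measured. TPM comparisons between genes, here and below, depend on it. MAP2K3 had the highest level per length of the 10, at 79.7 and 64.1 TPM in LT4 and 74.2, 73.9 and 76.5 TPM in control libraries. MAP3K5 had the lowest, at 2.95 ± 0.74 TPM in LT4 and 2.12 ± 0.63 TPM in control libraries (SD, n = 2 and 3). The order by control mean ran MAP2K3, MAPKAPK2, MAP2K7, MAPK13, MAPK14, MAP2K4, MAPK9, MAP3K7, MAPK8 and MAP3K5. Among neighbours in that order, the control libraries overlapped only between MAP3K7 and MAPK8. Over all 5 libraries MAPKAPK2 also overlapped MAP2K7, MAPK9 overlapped MAP3K7, and MAPK8 overlapped MAP3K5. The 13833 genes tested had a median control level of 7.82 TPM with quartiles of 2.37 and 28.5 TPM, so MAP2K3 stood at the 88.0th percentile and MAP3K5 at the 22.9th.

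**Figure D1:**
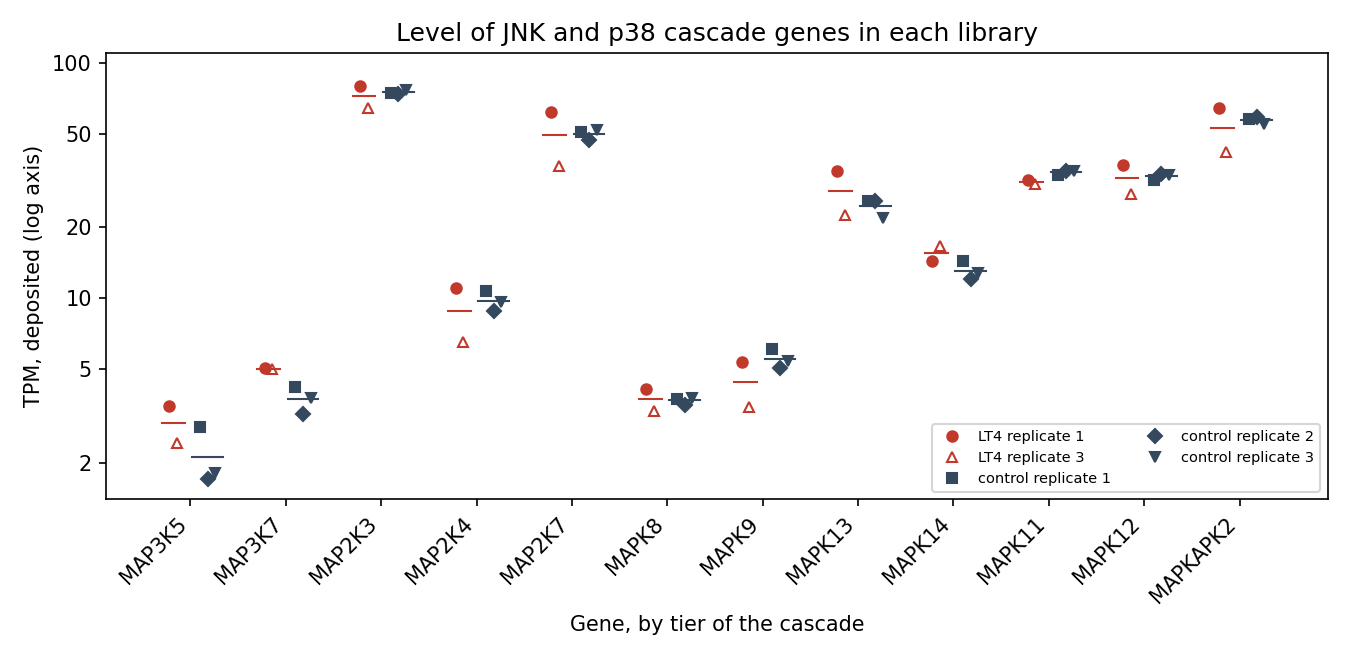
Deposited TPM (log axis) of the 10 kinase genes and of MAPK11 and MAPK12 in each library, by tier. Red points are the LT4 libraries, dark points the control libraries, and bars the group means. LT4 replicate 3 lies below LT4 replicate 1 for MAP2K7, at 36.5 against 62.0 TPM, and above it for MAPK14, at 16.6 against 14.4 TPM.

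None of the 10 transcripts differed between LT4 and control cells past an adjusted p of 0.05. The test was edgeR's quasi-likelihood F test with Benjamini-Hochberg adjustment over all 13833 genes, of which 19 passed, or 0.137%. That number was 1 without control 1, 2 or 3, 598 without LT4 replicate 1 and 526 without LT4 replicate 3, with 0 of the 10 kinase genes each time. At an unadjusted p under 0.05 there were again 0 of the 10 by edgeR, by DESeq2 and by limma voom, against 13.9% of all genes by edgeR. There were 3 after thinning to equal depth (MAPK9, MAP3K7 and MAPK13), 1 with the gene length trend removed (MAPK9), 3 without LT4 replicate 1 (MAP2K7, MAPK14 and MAPKAPK2) and 1 without LT4 replicate 3 (MAPK13). Thinning was 1 random draw, so the genes it gave may differ in another draw. The 10 log2 fold changes (LT4 over control) had a median of -0.02, with 4 above and 6 below 0, beside a median of -0.003 over all genes. For 9 of the 10 genes the 95% interval lay within a fold of 2 either way, and for 7 within a fold of 1.5. The interval bounds reached farthest for MAPK9, down to 0.608-fold, and for MAP3K5, up to 2.22-fold. Values in CPM (counts scaled to library size by trimmed mean of M-values) compare libraries for 1 gene, not genes with each other.

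At the top of the cascade, MAP3K5, a kinase activated by oxidative stress and held inactive by thioredoxin, had 6.33 and 5.22 CPM in LT4 replicates 1 and 3, against 5.52, 3.47 and 3.72 CPM in controls 1 to 3. Control 1 lay between the LT4 libraries, and the 5.22 CPM of LT4 replicate 3 rests on 12 reads, for which counting error alone allows 2.70 to 9.12 CPM (exact Poisson, 95%). The log2 fold change was 0.49 ± 0.31 (SE), with a 95% interval of -0.17 to 1.15 and an adjusted p of 0.50. The gene lies at chr6:136557047-136792518 on the - strand.

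MAP3K7, which relays signals from TGF-β, interleukin-1 and TNF receptors, had 12.7 and 14.8 CPM in the LT4 libraries, against 11.2, 9.02 and 10.7 CPM in the controls. Both LT4 libraries lay above every control, which held for 17.3% of all genes tested. The log2 fold change of 0.38 ± 0.21 (SE), with an interval of -0.07 to 0.83, did not pass (edgeR adjusted p = 0.441). In TPM the LT4 libraries were at 5.04 and 5.00, against 4.19, 3.23 and 3.79 in the controls. MAP3K7 lies at chr6:90513573-90587045 on the - strand.

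Of the MAP2Ks, MAP2K3 had 104 and 98.8 CPM in LT4 libraries, against 103, 108 and 113 CPM in controls. Its log2 fold change was -0.08, and the interval of -0.38 to 0.21 was the narrowest of the 10. MAP2K4, the kinase shared by JNK and p38, had 21.97 and 15.2 CPM in LT4 libraries, against 22.6, 19.3 and 21.4 CPM in controls. LT4 replicate 1 lay within the controls and LT4 replicate 3 below all of them, with 35 reads behind its value. The pooled log2 fold change was -0.12 (interval -0.53 to 0.30).

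MAP2K7, the JNK-selective kinase, had 111 and 76.6 CPM in LT4 libraries, against 96.7, 92.8 and 104 CPM in the controls. One LT4 library lay above and the other below every control, and the pooled log2 fold change was -0.04 (interval -0.40 to 0.31, adjusted p = 0.936). MAP2K3 lies at chr17:21284672-21315240, MAP2K4 at chr17:12020824-12143830 and MAP2K7 at chr19:7903843-7914478, all on the + strand.

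The JNK transcripts gave the gene closest to no difference and the one with the lowest fold change. MAPK8 had 13.9 and 13.1 CPM in LT4 libraries, against 13.3, 13.2 and 14.3 CPM in controls. The groups overlapped, with a log2 fold change of -0.0016 and an interval of -0.41 to 0.41. MAPK9 had 16.6 and 12.6 CPM in LT4 libraries, against 20.2, 17.4 and 18.9 CPM in controls. Both LT4 libraries lay below every control, which held for 16.5% of all genes tested, and the log2 fold change of -0.31 ± 0.19 (SE), with an interval of -0.72 to 0.10, did not pass (edgeR adjusted p = 0.495). It was -0.58 without LT4 replicate 1 and -0.18 without LT4 replicate 3. MAPK8 lies at chr10:48306639-48439360 on the + strand and MAPK9 at chr5:180233143-180292099 on the - strand.

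The p38 genes MAPK14 and MAPK13 are neighbours on the + strand of chromosome 6, at chr6:36027677-36111236 and chr6:36127809-36144524. They are 16572 bases apart with 0 annotated genes between them. MAPK14, which encodes the widely expressed p38α, had 34.2 and 46.6 CPM in LT4 libraries, against 36.6, 31.8 and 34.4 CPM in controls. MAPK13, which encodes p38δ, had 84.5 and 64.8 CPM in LT4 libraries, against 67.4, 70.0 and 59.9 CPM in controls. For MAPK14 it was LT4 replicate 3 that lay above every control, and for MAPK13 it was LT4 replicate 1. The pooled log2 fold changes were 0.20 ± 0.17 (SE) for MAPK14 and 0.20 ± 0.16 for MAPK13, with adjusted p of 0.636 and 0.59 by edgeR.

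MAPKAPK2, the kinase below p38α, had 93.2 and 71.8 CPM in LT4 libraries, against 89.7, 95.6 and 90.1 CPM in controls. LT4 replicate 1 lay within the controls and LT4 replicate 3 below them, with a pooled log2 fold change of -0.14 and an interval of -0.47 to 0.19. The gene lies at chr1:206684944-206734283 on the + strand. The pseudogene AL591846.1 overlaps it on the other strand, with 63 and 26 reads in LT4 and 79, 93 and 96 reads in control libraries, against 942 and 165 and 1104, 1102 and 1042 reads of MAPKAPK2 in the same order. No source used here says whether counting used strand, so reads of the overlapping genes cannot be told apart.

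**Figure D2:**
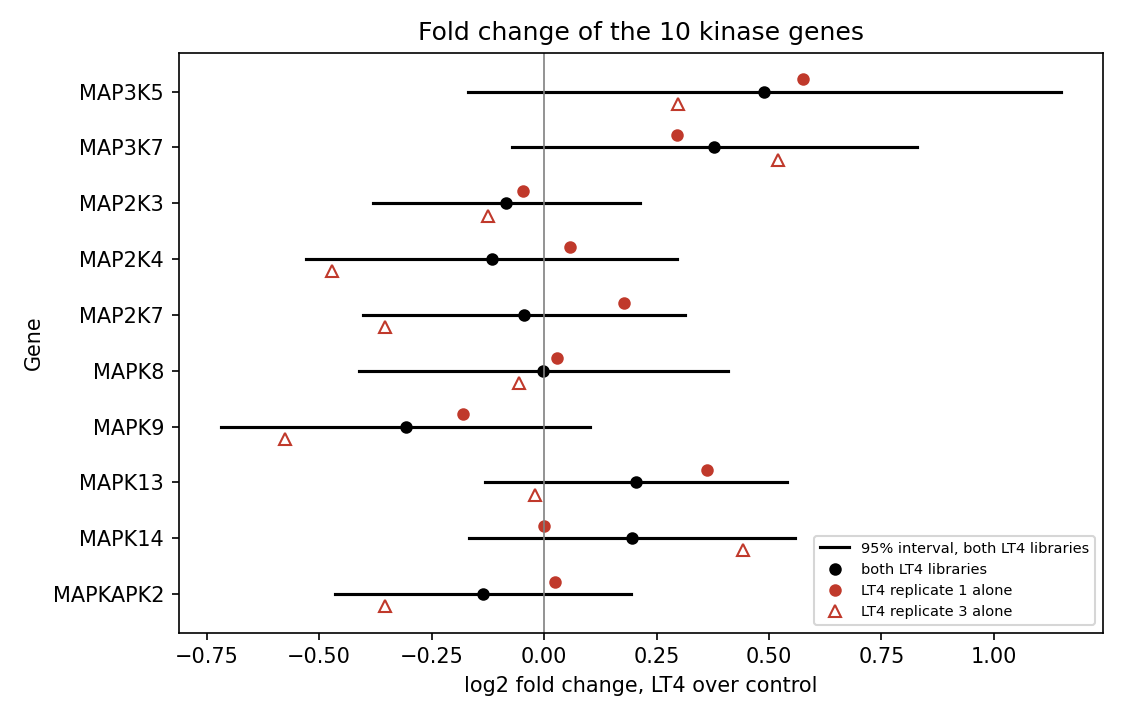
log2 fold change of each of the 10 kinase genes, LT4 over control. Black points and lines are both LT4 libraries with the 95% interval, red circles LT4 replicate 1 alone and open triangles LT4 replicate 3 alone. All 10 lines cross 0, and 6 genes have the LT4 libraries on opposite sides of it, MAPK14 with only -0.00025 in LT4 replicate 1.

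The LT4 libraries taken singly gave opposite signs for 6 of the 10 genes, namely MAP2K4, MAP2K7, MAPK8, MAPK13, MAPK14 and MAPKAPK2. Several of these signs rest on values near 0. In LT4 replicate 1 MAPK14 was at -0.00025, MAPKAPK2 at 0.024 and MAPK8 at 0.029. In LT4 replicate 3 MAPK13 was at -0.019 and MAPK8 at -0.057. The authors' deposited value for MAPK14 in LT4 replicate 1 is 0.013, above 0. The share of opposite signs over all genes was not computed. MAP3K5, MAP3K7, MAP2K3 and MAPK9 kept their sign. Against the 3 controls, LT4 replicate 1 alone had 526 genes past the threshold, or 3.7% of those tested, and LT4 replicate 3 alone 598, or 4.12%, with 0 of the 10 kinase genes in either. The spread in these fits comes from the controls, and the lone LT4 library is assumed to vary like them. The smallest adjusted p were 0.172 for MAPK13 in LT4 replicate 1, at a log2 fold change of 0.36, and 0.213 for MAPK14 in LT4 replicate 3, at 0.44. In the authors' deposited table, which also sets each LT4 library against the controls, the lowest adjusted p over the 10 genes was 0.191, for MAPK13 in LT4 replicate 1.

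Set directly against LT4 replicate 1, LT4 replicate 3 was lower for 8 of the 10 genes, with a median log2 difference of -0.33, beside 0.01 over all genes. This compares 2 libraries and not conditions. No kinase gene of the 10 passed, while 338 of all genes did, or 2.44%, a number that was 508 without control 2 and 638 without control 3. MAP2K7 was the 1 gene with an unadjusted p under 0.05, at -0.53 ± 0.20 (SE; edgeR adjusted p = 0.161). DESeq2 and limma voom likewise called 0 of the 10. MAPK14 and MAP3K7 were the genes higher in LT4 replicate 3, by 0.44 and 0.22. LT4 replicate 3 is also the shallowest library, with the highest mitochondrial share, and the part of either in these differences was not tested.

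The balance within 4 pairs of kinases of the same tier was compared as the log2 ratio of TPM + 1. MAPK9 over MAPK8 was 0.31 and 0.05 in LT4 libraries, against 0.58, 0.42 and 0.43 in controls. The LT4 values lay below every control value. The difference of -0.30 had an exact two-sided permutation p of 0.1, the smallest that 10 splits of these libraries allow, and an adjusted p of 0.4 over the 4 pairs. The difference was -0.43 without LT4 replicate 1 and -0.17 without LT4 replicate 3. A p under 0.05 is therefore out of reach with this design.

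MAPK13 over MAPK14 was 1.21 in LT4 replicate 1 and 0.42 in LT4 replicate 3, against 0.80, 1.04 and 0.72 in the controls. The LT4 libraries lay on either side of the controls, and MAPK13 remained the higher of this pair in all 5 libraries. MAP2K7 over MAP2K4 was 2.38 and 2.31 in LT4 libraries, against 2.15, 2.29 and 2.32 in controls, the steadiest pair across the LT4 libraries. MAP3K5 over MAP3K7 was -0.43 and -0.81 in LT4 libraries, against -0.43, -0.64 and -0.77 in controls. The exact permutation p of these 3 pairs was 0.4 or higher.

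**Figure D3:**
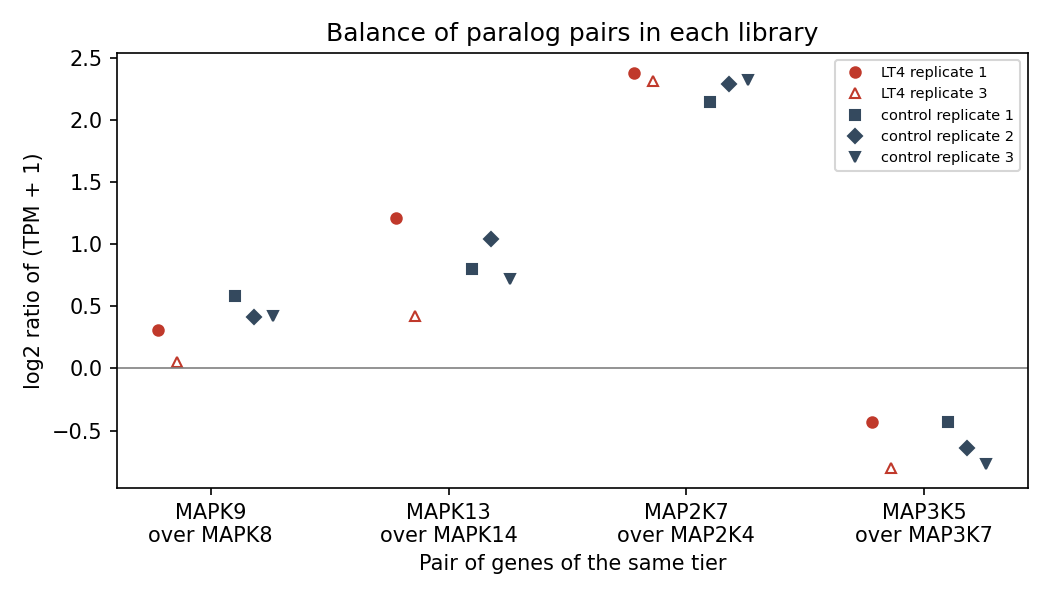
log2 ratio of TPM + 1 for 4 pairs of kinases of the same tier, 1 point per library, LT4 in red and control in dark. MAPK9 over MAPK8 is lower in both LT4 libraries, at 0.31 and 0.05, than in any control, and MAPK13 over MAPK14 has the LT4 libraries on either side of the controls.

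Of the JNK and p38 genes outside the 10, MAPK11 (p38β) and MAPK12 (p38γ) were also transcribed. MAPK11 was at 31.8 and 30.6 TPM in LT4 libraries, against 33.3, 34.7 and 34.8 TPM in controls, and MAPK12 at 36.9 and 27.7 TPM in LT4 libraries, against 31.8, 33.8 and 33.4 TPM in controls. Both were above MAPK14 in TPM in every library. Neither passed (edgeR adjusted p = 0.646 and 0.898). MAPK10 (JNK3, best known from neurons) had 1 and 0 reads in LT4 and 0, 1 and 1 in control libraries, and MAP2K6 (MKK6) had 0 and 0 reads in LT4 and 1, 0 and 0 in control libraries. With 3 counts taken as the limit that a count of 0 allows, that limit was 0.297 and 1.31 CPM in LT4 replicates 1 and 3, and 0.244 to 0.260 CPM in the controls, by counting error only. The two-sided exact Poisson interval used for MAP3K5 is wider, reaching 1.61 CPM for a count of 0 of MAP2K6 in LT4 replicate 3.

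The rest of the pathway was taken as 84 genes in 7 lists by role, of which 76 were expressed enough to be tested. None passed the adjusted threshold, beside the 0.137% of all genes. At an unadjusted p under 0.05, 18 were higher and 3 lower in LT4. Their median log2 fold change was 0.11, with 49 above and 27 below 0. Among all genes at that unadjusted p, 1187 were higher, or 8.58%, and 731 lower, or 5.28%. For 21 of the 76 the LT4 libraries were both higher than any control, and for 7 both lower, beside the 17.3% and 16.5% of all genes. The lists were chosen with earlier results of these data known, so their counts describe the lists and are not an independent test.

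**Figure D4:**
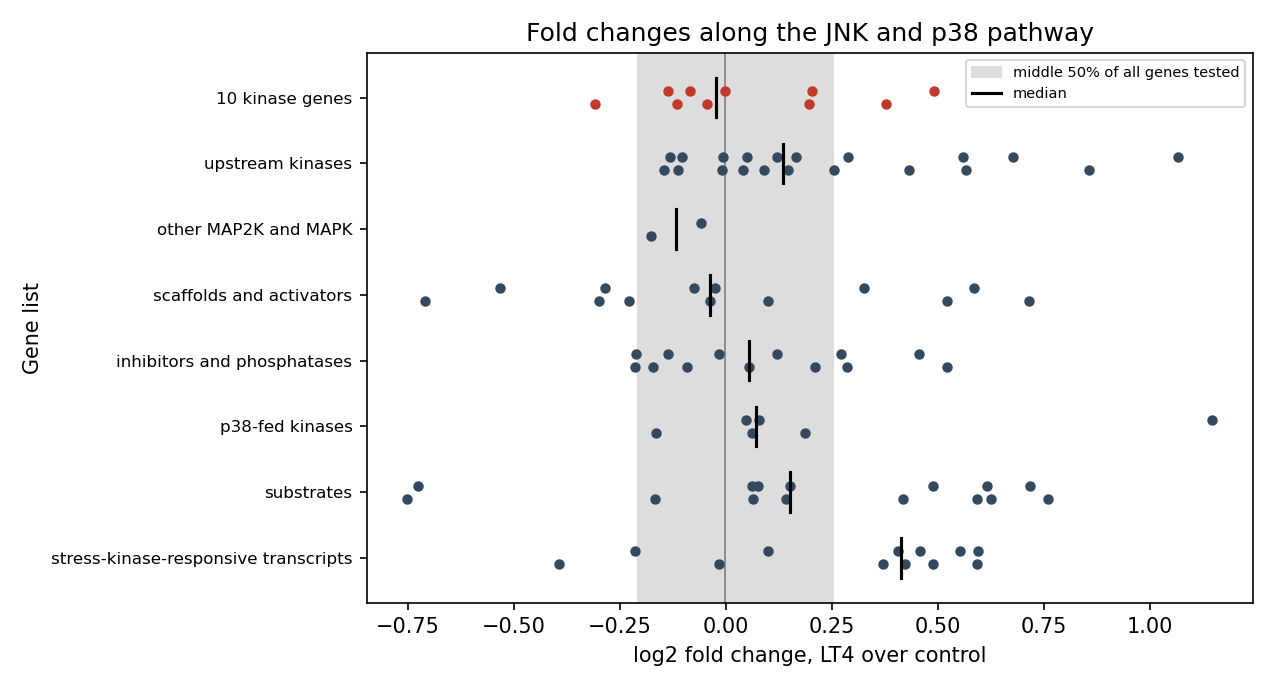
log2 fold change, LT4 over control, of the 10 kinase genes (red) and of the tested genes of the 7 pathway lists (dark), 1 point per gene in each list. JUN, ZFP36, DUSP1, DUSP10 and GADD45B are in more than 1 list, so the lists are not separate. Short black bars are list medians and the grey band holds the middle 50% of all genes tested, -0.21 to 0.25. The medians run from -0.12 in the other MAP2K and MAPK genes to 0.41 in the stress-kinase-responsive transcripts.

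Among 20 tested upstream kinases (MAP3Ks, TAO kinases and MAP4Ks) the median log2 fold change was 0.13, with an unadjusted p under 0.05 for 5 higher and 0 lower genes, beside 8.58% and 5.28% of all genes. MAP3K1, which feeds JNK through MAP2K4 and MAP2K7, had 5.74 and 9.14 CPM in LT4 libraries, from 58 and 21 reads. The controls had 3.90, 2.86 and 3.11 CPM. TAOK1, a p38-activating MAP3K, had 27.7 and 22.6 CPM in LT4 libraries, against 18.2, 13.7 and 16.3 CPM in controls. For both genes the LT4 libraries lay above every control, which held for 17.3% of all genes tested. The log2 fold changes were 1.07 ± 0.31 and 0.68 ± 0.19 (SE), without passing (edgeR adjusted p = 0.159 and 0.142). With the gene length trend removed they were 0.95 and 0.42. MAP3K1 passed in LT4 replicate 3 alone (adjusted p = 0.0465) and TAOK1 in LT4 replicate 1 alone (adjusted p = 0.0135).

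Between the LT4 libraries, 3 of 20 upstream kinases were lower in replicate 3 than in replicate 1 past the threshold, beside 195 of all genes, or 1.41%. These genes were picked once their values were known. In LT4 replicate 3 TAOK2, MAP4K2 and MINK1 were at 88.8, 48.3 and 97.5 CPM, and in LT4 replicate 1 at 156, 84.7 and 182 CPM. The log2 differences were -0.81, -0.81 and -0.90 (edgeR adjusted p = 0.0232, 0.0336 and 0.016). Each lost the call under some settings, with adjusted p of up to 0.102 for TAOK2, 0.12 for MAP4K2 and 0.0598 for MINK1, and without control 1 MAP4K2 had 0.0653.

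The 13 tested scaffolds and activators had a median of -0.04, with an unadjusted p under 0.05 for 2 higher and 2 lower genes. Among all genes the shares were 8.58% higher and 5.28% lower. SH3RF1 (POSH), a scaffold of the JNK module, had 37.5 and 34.8 CPM in LT4 libraries, against 22.9, 21.2 and 22.5 CPM in controls. MAPK8IP2, another JNK scaffold, had 5.84 and 6.53 CPM (59 and 15 reads) in LT4 libraries, against 9.10, 10.2 and 10.4 CPM in controls. Their groups did not overlap, beside 17.3% of all genes with both LT4 libraries above every control and 16.5% with both below. The log2 fold changes were 0.71 ± 0.16 and -0.71 ± 0.24 (SE), with adjusted p of 0.0962 and 0.218 by edgeR. SH3RF1 passed in LT4 replicate 1 alone (adjusted p = 0.00724) and under 3 other settings of the 14 tried.

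The 13 inhibitors and phosphatases had a median of 0.05, with an unadjusted p under 0.05 for 1 higher and 0 lower genes. Among all genes these shares were 8.58% and 5.28%. DUSP4, a nuclear MAPK phosphatase, had 215 and 218 CPM in LT4 libraries, against 162, 162 and 150 CPM in controls. The LT4 libraries lay close together and above the controls, and both lay above every control for 17.3% of all genes. DUSP4 had a log2 fold change of 0.45 ± 0.13 (SE; edgeR adjusted p = 0.156) and passed in 1 of 14 alternative settings. PPM1B, a phosphatase that acts on MAP3K7, had 5.64 and 11.3 CPM in LT4 libraries, against 4.47, 5.38 and 5.96 CPM in controls, so that only LT4 replicate 3 stood above them.

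The 6 kinases fed by p38 beside MAPKAPK2 had a median of 0.07. RPS6KA5 (MSK1), a nuclear kinase that phosphorylates histone H3 and CREB, had 6.04 and 6.09 CPM in LT4 libraries, from 61 and 14 reads. The controls had 3.57, 2.00 and 2.59 CPM. The log2 fold change of RPS6KA5, 1.15 ± 0.33 (SE), was the highest over the 7 lists in the main fit and did not pass (edgeR adjusted p = 0.151). With the gene length trend removed it was 0.81, below the 0.95 of MAP3K1. MAPKAPK5 had 16.1 and 22.6 CPM in LT4 libraries, against 15.6, 17.1 and 16.2 CPM in controls, with only LT4 replicate 3 above them.

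The 15 substrates had a median of 0.15, with an unadjusted p under 0.05 for 6 higher and 1 lower genes, beside 8.58% and 5.28% of all genes. JUN and ZFP36 are among the 6 and also among the stress-kinase-responsive transcripts. The one lower was HSPB1 (HSP27), the chaperone phosphorylated by MAPKAPK2, with 571 and 663 CPM in LT4 libraries, against 946, 1018 and 1094 CPM in controls. Both LT4 libraries lay well below every control, and both were below for 16.5% of all genes tested. The log2 fold change was -0.73 ± 0.13 (SE), with an interval of -1.02 to -0.44, and the adjusted p of 0.0568 missed the threshold. HSPB1 passed in LT4 replicate 1 alone (adjusted p = 0.000297), in LT4 replicate 3 alone (0.00885) and in 7 of 14 alternative settings in all, and over the 14 the adjusted p reached 0.333. ITCH, a ubiquitin ligase that JNK phosphorylates, had 22.4 and 29.1 CPM in LT4 libraries, against 16.4, 12.8 and 16.3 CPM in controls (log2 fold change 0.72, edgeR adjusted p = 0.135). It passed in LT4 replicate 3 alone (adjusted p = 0.023) and in 2 of 14 alternative settings in all.

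Of 16 transcripts listed as responsive to JNK or p38, CXCL8, IL6, PTGS2 and MMP1 had at most 5 reads in any library and were not tested. Kinase activity was not measured, so levels of the listed transcripts are no readout of JNK or p38. The other 12 were tested. Their median log2 fold change was 0.41, with 9 above and 3 below 0, and with an unadjusted p under 0.05 for 5 higher and 0 lower genes, JUN and ZFP36 among them. The 3 below 0 were FOSB, DUSP10 and DUSP1, at -0.39, -0.22 and -0.02. This list too was chosen with earlier results known. In 6 of the 12 the LT4 libraries were both higher than any control and in 0 both lower, beside 17.3% and 16.5% of all genes, and none of the 12 passed the adjusted threshold. JUN, the AP-1 factor that gave the JNKs their name, had 16.9 and 14.8 CPM in LT4 libraries, against 10.8, 11.2 and 10.1 CPM in controls. ATF3, a stress-induced factor of the same family, had 14.5 and 14.8 CPM in LT4 libraries, against 10.7, 9.37 and 8.81 CPM in controls. Neither gene's groups overlapped, at log2 fold changes of 0.59 ± 0.19 and 0.60 ± 0.20 (SE), with adjusted p of 0.20 and 0.224 by edgeR, and of 0.0827 to 0.453 for JUN over its alternative settings.

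Taken singly, LT4 replicate 1 had 4 of 77 tested pathway genes higher than control past the threshold, TAOK1, SH3RF1, MEF2A and ZFP36, and 1 lower, HSPB1, beside 351 higher and 175 lower of all 14228 genes, together the 3.7%. LT4 replicate 3 had 4 higher, MAP3K1, MAP3K4, SPAG9 and ITCH, and 2 lower, HSPB1 and MAPK8IP1, beside 369 higher and 229 lower of all 14504 genes, together the 4.12%. HSPB1 was the gene called in both. MEF2A, ZFP36, MAP3K4, SPAG9 and MAPK8IP1 were picked for naming with their values known. These comparisons share their control libraries.

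The promoters of the kinase genes were read as the 250 bases before the start, in RefSeq's GRCh38.p14, and 9 of the 10 genes matched, with 13 windows. The GC box GGGCGG, searched on both strands, occurred in 11 of 13, and in 42.6% of all 35116 windows. CCAAT occurred in 5, and in 32% of all windows. TATAAA and the CRE motif TGACGTCA occurred in 0, and in 10.7% and 1.65% of all windows, and the AP-1 motif TGANTCA in 1, a MAP2K3 window, and in 6.57%. The windows of the kinase genes held 40.0 to 84.4% G and C, beside a median of 58% over all windows. MAP2K3, MAP3K5 and MAPK9 have several windows each, so the windows are not separate genes. The part of G and C content in these counts was not tested. A match is a description of these letters and no measured site.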

How the data were processed

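Polyadenylated RNA of HCT116 cells was extracted with TRIzol and made into libraries with a TruSeq stranded mRNA kit, per the labels' protocols. The submitters' processing notes name fastp 0.20.0, HISAT2 2.1.0, SAMtools 1.9, featureCounts, Subread 2.0.1 and GRCh38. No source used here gives the annotation release or strand setting. Per the file headers, the deposited table holds raw counts per gene and TPM, which the authors scaled to 1000000 per library. The authors also deposited, for each LT4 library set against the controls, log2 fold changes and adjusted p-values, with no test named. A further 2 per-sample columns and 3 comparison columns match no sample analysed and were not used.

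Groups came from sample titles. Counts of all 5 libraries were filtered by expression, scaled by TMM and tested with edgeR 4.0.16 (R 4.3.3; quasi-likelihood F test, robust, Benjamini-Hochberg over 13833 genes, threshold 0.05). The biological coefficient of variation was 14.6%. Intervals are 95% t intervals of the fit. LT4 replicate 3 was set against LT4 replicate 1 in a fit with 3 groups, whose spread comes from the controls. Pair ratios used TPM with a pseudocount of 1 and an exact permutation test. The fit was also run on counts simulated from the control means, with the real library sizes and a common coefficient of variation. That simulation holds no difference in composition between the LT4 libraries, so it cannot show how the fit handles that difference. Alternatives used DESeq2 1.42.0, limma 3.58.1, other scalings and filters, thinning to equal depth, a gene length trend, a replicate block and leaving out each library. Positions and coding sequences came from GENCODE 29, and promoter windows from RefSeq GRCh38.p14.

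All 10 kinase genes are given in every library. Of each pathway list the genes past the threshold and the 2 tested genes with the smallest p are named, with MAP2K6, MAPK10, MAPK11 and MAPK12. The 10 genes and the lists were chosen with earlier results of these data known.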

Additional observations from a re-analysis of the deposited data

How the results depend on the processing

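Of the 10 kinase genes, 0 passed the threshold in either comparison under every setting run. Over all genes, the count of LT4 against control, 19 as reported, was 311 with no count filter, 115 with DESeq2 and 427 with a replicate block. The block leaves few data to estimate spread from and gives control 2 no LT4 partner, so its counts do not establish a pairing. Leaving out a library gave 1 to 598, with 1 without control 1, 2 or 3, 598 without LT4 replicate 1 and 526 without LT4 replicate 3. The pathway genes, 0 as reported, were 2 with no filter, 2 with DESeq2, 1 with voom, 1 after thinning, 5 with the block (HSPB1, SH3RF1, DUSP4, ITCH and IER3) and 0 to 6 without a library. For LT4 replicate 3 against LT4 replicate 1, the 338 genes were 124 with library totals, 531 with no filter, 176 with at least 50 counts in 2 libraries, 214 with DESeq2, 115 with voom and 235 to 638 without a library.

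The log2 fold change changed sign for MAP2K7 with library totals (0.0036), for MAPK8 with library totals (0.047), at least 50 counts (0.0056) and voom (0.012), and for MAPKAPK5 with the length trend removed (-0.0498). Removing that trend also made it smaller for RPS6KA5 (0.81), TAOK1 (0.42) and ITCH (0.55), and larger for JUN (0.67). The MAP3K5 over MAP3K7 difference turned to 0.048 with a pseudocount of 0.1. Without 1 library the log2 fold changes spanned 0.30 to 0.72 for MAP3K5, 0.29 to 0.52 for MAP3K7, -0.13 to -0.05 for MAP2K3, -0.58 to -0.18 for MAPK9, -0.47 to 0.0574 for MAP2K4, -0.35 to 0.18 for MAP2K7, -0.0567 to 0.0343 for MAPK8, -0.0193 to 0.36 for MAPK13, -0.00025 to 0.44 for MAPK14, -0.35 to 0.0237 for MAPKAPK2, -0.15 to 0.0232 for MAPK12 and -0.0121 to 0.48 for MAPKAPK5, and the differences -0.43 to -0.17 for MAPK9 over MAPK8, -0.43 to 0.36 for MAPK13 over MAPK14 and -0.19 to 0.18 for MAP3K5 over MAP3K7. The cause was not tested. Of the kinase genes' other alternatives, 86 of 90 kept their sign.

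LT4 replicate 1 and control 1, and LT4 replicate 3 and control 3, deviated from their group means together with r of 0.21 each over genes. With 2 LT4 libraries these deviations mirror each other, so the r values are not separate observations. They do not establish a pairing. Among the kinase genes followed, the shallow LT4 replicate 3 limits MAP3K5, MAPK9, MAPK8, MAP3K7 and MAP2K4 most, with 12 to 35 reads there.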
